A study of Mus musculus with 11 samples.

Results

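The transcripts of 9 proteins of the neuronal cytoskeleton were examined, namely those of the neurofilament subunits Nefl, Nefm, Nefh and Ina, the microtubule-associated proteins Mapt, Map1b and Map2, the stathmin Stmn2 and the neuronal beta-tubulin Tubb3. They were taken by name, as 9 of the 22609 genes in the deposited tables, and all 9 passed the filter of at least 10 counts over all libraries. Polyadenylated RNA had been sequenced in bulk from 11 libraries labelled as mouse cerebellar hemisphere, with 3 control, 3 NFKO, 2 AnkGKO and 3 DKO libraries. By the study's methods, NFKO (Pcp2-Cre; NF Fx/Fx) was meant to lose neurofascin, the product of Nfasc, and not neurofilaments. AnkGKO (Pcp2-Cre; AnkG Fx/Fx) was meant to lose ankyrin G, the product of Ank3, and DKO, which combined Pcp2-Cre with both floxed pairs of alleles, was meant to lose both. The control mice carried floxed alleles and no Cre according to the methods, which name both genes as floxed in 1 place and allow 1 floxed gene in another, whereas the study's results text writes them with Pcp2-Cre. Pcp2-Cre acts mainly in Purkinje cells, while the RNA came from whole tissue, so that a change confined to those cells is diluted. All groups shared a mixed C57BL/6J;129 background and received no treatment, and the labels give both postnatal day 30 and postnatal day 32 as the age and call the sexes mixed. The comparisons ask how the axonal cytoskeleton transcripts stood when 1 or both of these proteins of the axon initial segment were targeted.

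Neurofilaments are the main intermediate filaments of large axons. Nefl forms the backbone, Nefm and Nefh add long phosphorylated tails that space the filaments and set axon calibre, and Ina (alpha-internexin) joins them in central neurons. Tau, from Mapt, and Map1b bind microtubules mainly in axons, and Map2 does so mainly in dendrites. Stmn2 binds tubulin dimers and is needed for axon regrowth, and Tubb3 is a beta-tubulin largely restricted to neurons. At the axon initial segment, ankyrin G and neurofascin 186 anchor the membrane to the cytoskeleton. Large projection neurons such as motor neurons and sensory neurons are known for especially high neurofilament content.

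Reads counted on genes ranged from 38890851 to 55822361 per library, and each member was covered by 10302 to 159388 counts in every library. Levels are given as CPM, the counts scaled to library size with edgeR's TMM method. The markers did not match the label in every library. Summed CPM of 6 Purkinje cell markers was 392 in control replicate 1 and 449 in NFKO replicate 1 but 64.2 to 125 in the other libraries, and 6 granule cell markers summed to 492 and 415 in those libraries against 10.5 to 46.2 elsewhere. Each library held 395 to 615 CPM of 12 caudal Hox genes and 187 to 506 CPM of 6 cholinergic motor neuron markers. DKO replicate 2 stood apart by 121 CPM of 5 sensory neuron markers, among them Avil at 45.4 and Scn10a at 54.0 CPM, against at most 1.46 CPM in any other library. Schwann cell markers (4 genes) ranged from 4.75 to 302 CPM and skeletal muscle markers (5 genes) from 1.87 to 256 CPM. Ank3 was lower than control in AnkGKO (log2 fold change -1.03, standard error 0.10, adjusted p = 0.00108 in edgeR's quasi-likelihood test) and in DKO (-1.07, standard error 0.088, adjusted p = 0.000461 in the same test). Purkinje cell markers summed to 64.2 to 86.7 CPM in AnkGKO and 74.2 to 90.5 CPM in DKO. In which cells Ank3 was lower was not tested. For Nfasc, which was not called in NFKO or DKO, the log2 fold changes were -0.079 and -0.23.

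The neurofilament triplet was among the most abundant messages of this tissue, and its 3 genes varied together from library to library. Nefl lies on chromosome 14 of GRCm39 (chr14:68321268-68326544, plus strand). Its level in control replicates 1, 2 and 3 was 2259, 1587 and 2475 CPM, against 2609, 1698 and 2044 in NFKO, at 1799 and 2964 in AnkGKO, and at 2678, 2590 and 2798 in DKO. The lowest library was a control and the highest an AnkGKO library, and the AnkGKO libraries alone were 1.65-fold apart. Only the DKO libraries held together, and they all lay above the controls.

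Nefm, encoded next to Nefl (chr14:68320039-68362305, minus strand), showed the same pattern, at 2420, 1698 and 2570 CPM in control, 2854, 1892 and 2192 in NFKO, 1826 and 3354 in AnkGKO, and 2695, 2637 and 2901 in DKO. Nefh, the heavy subunit (chr11:4888740-4898130, minus strand), was at 1500, 1041 and 1586 CPM in control, 1678, 1058 and 1311 in NFKO, 1088 and 1950 in AnkGKO, and 1592, 1549 and 1625 in DKO. For all 3 subunits control replicate 2 was lowest and AnkGKO replicate 2 highest, 1.87-fold apart for Nefl, 1.98-fold for Nefm and 1.87-fold for Nefh. Nefm ranked between the 9th and the 24th most abundant of 17557 genes in every library, and Nefl between the 12th and the 29th. In GENCODE vM39 the models of Nefl and Nefm overlap on opposite strands, as do those of Ina and Nt5c2 and of Nefh and Ap1b1. The kit marks strand, but whether the counting used strand is not given in the sources used here, so reads in these overlaps are uncertain.

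**Figure D1:**
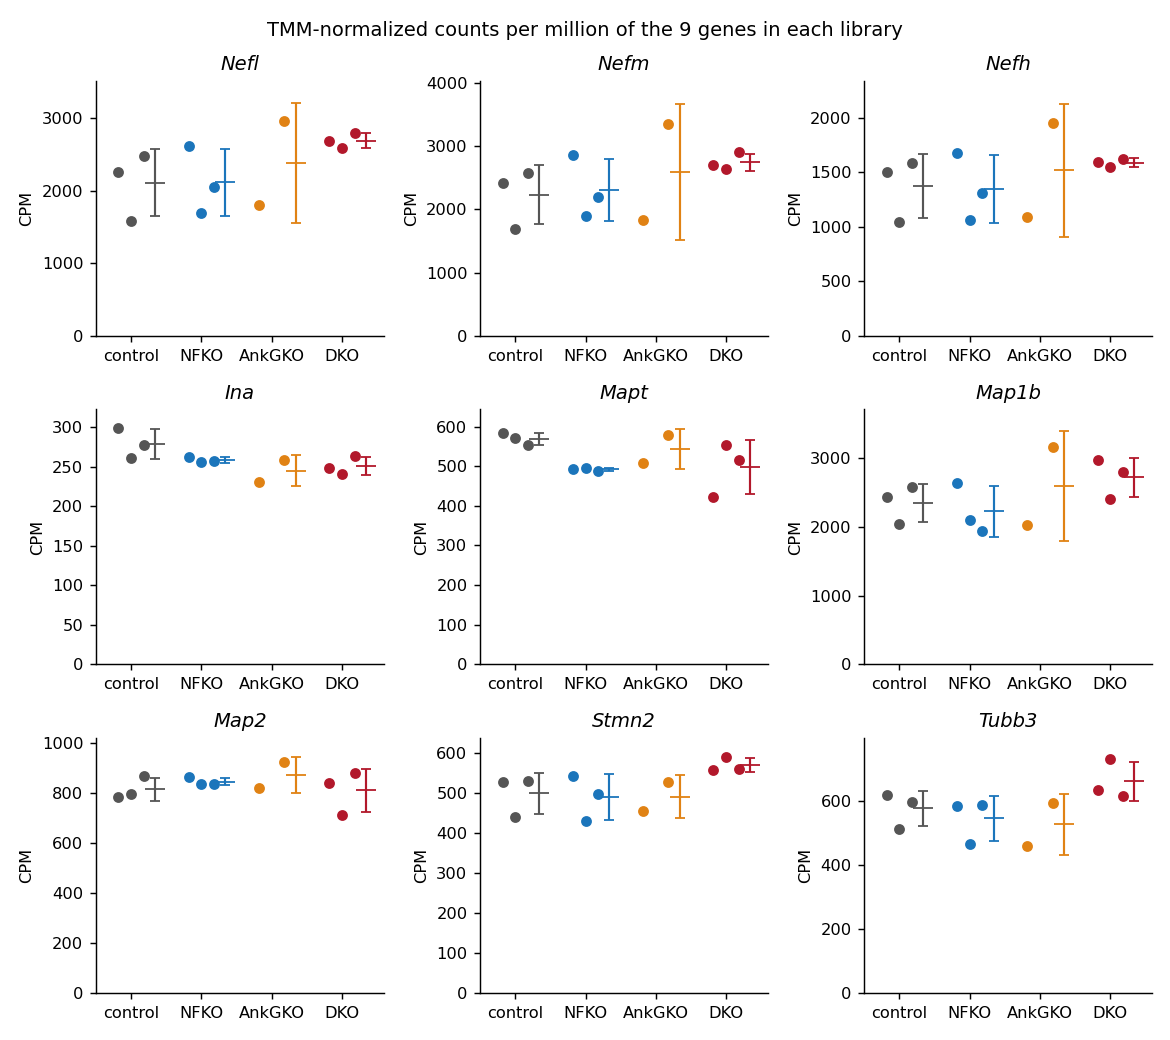
Each panel plots TMM-normalized CPM (vertical axis, from 0) of 1 gene by genotype, with points for libraries in replicate order and a bar for the mean ± SD (3 libraries a group, 2 in AnkGKO). Nefl, Nefm and Nefh repeat the same pattern of points, with control replicate 2 lowest and AnkGKO replicate 2 highest, whereas Ina stays between 231 and 298 CPM.

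Ina behaved otherwise. The gene (chr19:47003069-47013770, plus strand) was at 298, 261 and 277 CPM in control, 263, 255 and 257 in NFKO, 231 and 259 in AnkGKO, and 248, 241 and 263 in DKO. Its libraries differed by 1.29-fold from lowest to highest, and both AnkGKO libraries lay below every control. Against control, AnkGKO gave a log2 fold change of -0.19 (95% interval -0.35 to -0.020, adjusted p = 0.837 in edgeR) and DKO one of -0.15 (-0.30 to -0.0063, adjusted p = 0.629). Neither passed the adjusted threshold. Leaving out 1 library in turn moved them between -0.27 and -0.11 in AnkGKO and between -0.20 and -0.10 in DKO.

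Mapt, which encodes tau (chr11:104122024-104222946, plus strand), was at 584, 571 and 553 CPM in control and at 492, 495 and 489 in NFKO. It was at 508 and 579 CPM in AnkGKO and at 423, 554 and 516 in DKO. The NFKO libraries lay between 489 and 495 CPM, below all controls, the only member for which NFKO and control did not overlap. The log2 fold change was -0.21 (standard error 0.090, 95% interval -0.41 to -0.014), with adjusted p = 0.611 in edgeR and adjusted p = 0.314 in DESeq2, each over all genes. With Xist as a covariate, since the sexes were mixed, it was -0.10. In DKO the value was -0.19 (95% interval -0.39 to 0.0015, adjusted p = 0.639 in edgeR), with 1 library inside the control range, and it was -0.090 without DKO replicate 1 and -0.28 without DKO replicate 2.

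Map1b, a large axonal microtubule-associated protein (chr13:99557954-99653137, minus strand), varied more like the triplet. It was at 2432, 2049 and 2586 CPM in control, 2643, 2097 and 1946 in NFKO, 2035 and 3167 in AnkGKO, and 2974, 2417 and 2798 in DKO. Map2 (chr1:66214327-66481746, plus strand), whose protein binds microtubules mainly in dendrites, was among the steadiest members. It was at 781, 794 and 867 CPM in control, 863, 836 and 836 in NFKO, 819 and 922 in AnkGKO, and 838, 713 and 879 in DKO. All 4 groups of Map2 overlapped, and its log2 fold changes against control lay between -0.0075 and 0.097. The 95% intervals for Map2 spanned from -0.19 to 0.30 over the 3 comparisons, the upper bound being 1.23-fold. Both genes are listed in the tables under older symbols (Mtap1b, Mtap2) and were matched through RefSeq synonyms.

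The promoters of Map1b and Map2 are shown, from 250 bases before to 50 after the start, as given in RefSeq on GRCm38.p6. Whether they bear on the variation between libraries was not tested. Capitals mark the motif GGGCGG, a core of Sp1 sites, read on both strands, and none of the 4 motifs searched contains another.
Map1b, chr13:99516553-99516852, minus strand: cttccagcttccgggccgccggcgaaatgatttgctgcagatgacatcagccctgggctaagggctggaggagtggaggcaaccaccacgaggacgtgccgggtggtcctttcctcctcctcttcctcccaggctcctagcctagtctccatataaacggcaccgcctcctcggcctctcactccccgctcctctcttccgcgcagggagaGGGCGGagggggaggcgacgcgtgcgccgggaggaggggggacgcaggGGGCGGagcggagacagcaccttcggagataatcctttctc
Map2, chr1:66175079-66175378, plus strand: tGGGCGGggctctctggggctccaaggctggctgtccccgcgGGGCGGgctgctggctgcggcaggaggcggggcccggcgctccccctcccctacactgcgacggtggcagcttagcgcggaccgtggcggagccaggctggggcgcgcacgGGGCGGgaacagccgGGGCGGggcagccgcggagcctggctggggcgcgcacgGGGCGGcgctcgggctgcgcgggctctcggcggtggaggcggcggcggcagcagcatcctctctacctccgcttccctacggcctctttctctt
GGGCGG occurs 2 times in the Map1b window and 5 times in that of Map2, and 35.7% of 32851 promoters of this length hold it at least once. Map1b also holds TATAAA (13.6% of promoters), and neither holds TGACGTCA or CACGTG. The windows of Ina and Tubb3 hold GGGCGG 2 times each and none of the other 3 motifs. GC content ran from 65.7% in Map1b to 77.7% in Map2, against a median of 52.7% over all promoters. Entries for Nefl, Nefm, Nefh, Mapt and Stmn2 were not used here.

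Stmn2 (chr3:8574151-8626667, plus strand) was at 527, 439 and 530 CPM in control, 543, 429 and 498 in NFKO, 454 and 528 in AnkGKO, and 559, 590 and 560 in DKO. All DKO libraries lay above all other libraries. The log2 fold change of DKO against control was 0.19 (95% interval -0.026 to 0.41, adjusted p = 0.658 in edgeR). Tubb3 (chr8:124138163-124150092, plus strand) was at 620, 514 and 598 CPM in control, 585, 466 and 587 in NFKO, 460 and 595 in AnkGKO, and 635, 733 and 618 in DKO. Its DKO values reached down to the control range. Against NFKO the DKO log2 fold change was 0.28 (adjusted p = 0.295 in edgeR), and against AnkGKO it was 0.33 (adjusted p = 0.578).

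The highest Tubb3 and Stmn2 values were both in DKO replicate 2, the library with sensory neuron markers. Without that library the DKO differences of Tubb3 were 0.12 against control, 0.20 against NFKO (adjusted p = 0.398 in edgeR) and 0.25 against AnkGKO (adjusted p = 0.536). For Stmn2 the difference from control was then 0.16. Prph, an intermediate filament of peripheral and motor neurons that was picked after its values were seen, was also highest there, at 192 CPM against 40.5 to 127 CPM elsewhere. The part of the sensory neuron RNA in these values was not tested.

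Levels of different genes can be compared per length only, here as CPM per kb of annotated exon. Nefl was highest at 677 ± 138 (SD over 11 libraries), followed by Nefm at 414 ± 86.3, Nefh at 357 ± 71.8, Tubb3 at 182 ± 24.5, Map1b at 149 ± 24.8, Stmn2 at 89.0 ± 9.16, Ina at 78.3 ± 5.37, Map2 at 40.0 ± 2.68 and Mapt at 36.6 ± 3.44. The steps from Nefl to Nefm, Nefm to Nefh, Nefh to Tubb3, Map1b to Stmn2 and Ina to Map2 held in 11 of 11 libraries. Tubb3 exceeded Map1b in 10 libraries, Stmn2 exceeded Ina in 9 and Map2 exceeded Mapt in 8, so these neighbours were not separated in every library. With the longest transcript as the length, Nefm came to 666 per kb, near Nefl, and Stmn2 to 151. Map2, Ina and Mapt came to 85.7, 78.4 and 78.2, and Map1b to 207 against 182 for Tubb3. The means of Tubb3 and Map1b, and those of Ina and Map2, thus changed order with the length used. With this length Nefm also exceeded Nefl in NFKO replicates 1 and 2 and in AnkGKO replicate 2, and lay below it in the other libraries.

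**Figure D2:**
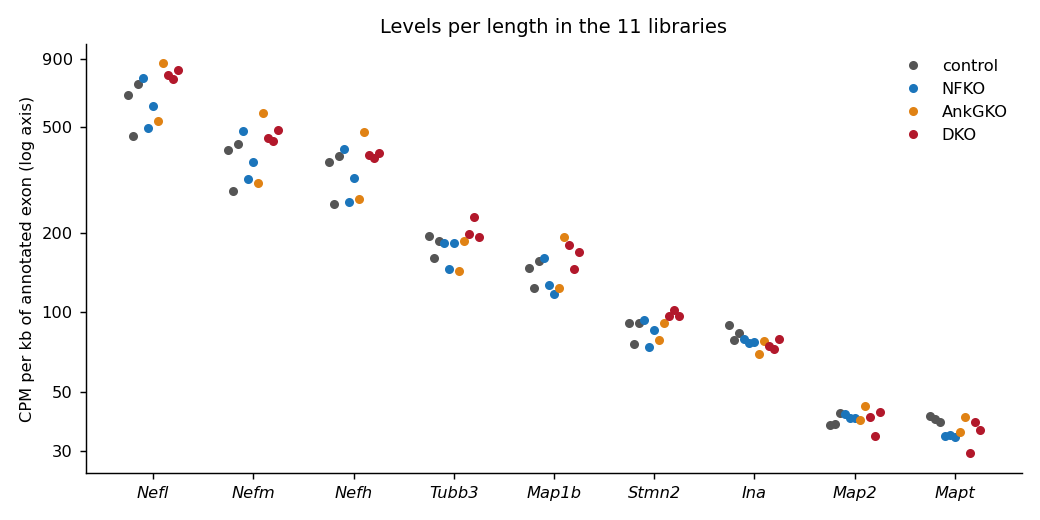
CPM per kb of annotated exon (vertical log axis) for the 9 genes in order of their mean, with 1 point per library coloured by genotype. Nefl, Nefm and Nefh spread by 1.87- to 1.98-fold, while Ina, Map2 and Mapt sit in narrow bands at 69.8 to 90.1, 34.3 to 44.4 and 29.5 to 40.7.

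None of the 9 genes was called in any of the 7 comparisons, where called means an adjusted p under 0.05 over all 17557 genes tested and a log2 fold change past 0.6 in either direction. In edgeR 0 of 9 members were called in NFKO, AnkGKO and DKO against control, where 0.365%, 0.165% and 0.0228% of all genes were. The same held for DKO against NFKO (0.615% of all genes called), DKO against AnkGKO (0.171%), the interaction of the knockouts (0.530%) and the test of any difference among the 4 genotypes (0.723%, no fold threshold). DESeq2 also called 0 of 9 in each, while it called 0.908%, 0.582% and 0.251% of the genes it tested in NFKO, AnkGKO and DKO against control, 2.39% in DKO against NFKO, 0.565% in DKO against AnkGKO, 1.79% in the interaction and 6.49% for any difference. At an unadjusted p under 0.05, 1 of 9 members passed in NFKO (Mapt), AnkGKO (Ina) and DKO (Ina) against control, with 7.69%, 5.39% and 7.77% of all genes. Tubb3 alone passed that limit in DKO against NFKO (16.2% of genes), DKO against AnkGKO (8.48%) and the interaction (10.3%), and no member did in the test of any difference (11.3%). The lowest adjusted p of any member was 0.295 in edgeR and 0.138 in DESeq2. Libraries did not overlap with control for 1 of 9 members in NFKO (Mapt, lower), 1 in AnkGKO (Ina, lower) and 3 in DKO (Nefl, Nefm and Stmn2, higher), against 13.9%, 24.0% and 14.4% of all genes. These shares of members lay near the background of all genes, apart from the 3 of 9 in DKO, of which Nefl and Nefm moved together across libraries.

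The size of change that these libraries could show differed among the members. For Nefl the log2 fold change was 0.0068 in NFKO (95% interval -0.50 to 0.52), 0.18 in AnkGKO (-0.39 to 0.74) and 0.35 in DKO (-0.16 to 0.86). In DKO, Nefm was at 0.30 (-0.25 to 0.85) and Nefh at 0.21 (-0.35 to 0.76). These values leaned on control replicate 2, without which they were 0.18 for Nefl, 0.13 for Nefm and 0.038 for Nefh. The upper bounds in DKO were 1.82-fold for Nefl, 1.80-fold for Nefm and 1.70-fold for Nefh, and all 3 intervals included 0. For Ina, Map2 and Stmn2 the intervals against control stayed within a log2 fold change of 0.41 in either direction. The median over the 9 members was -0.028 in NFKO, 0.097 in AnkGKO and 0.20 in DKO, beside medians of -0.0050, -0.0050 and -0.00062 over all genes. These 3 comparisons share the control libraries.

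**Figure D3:**
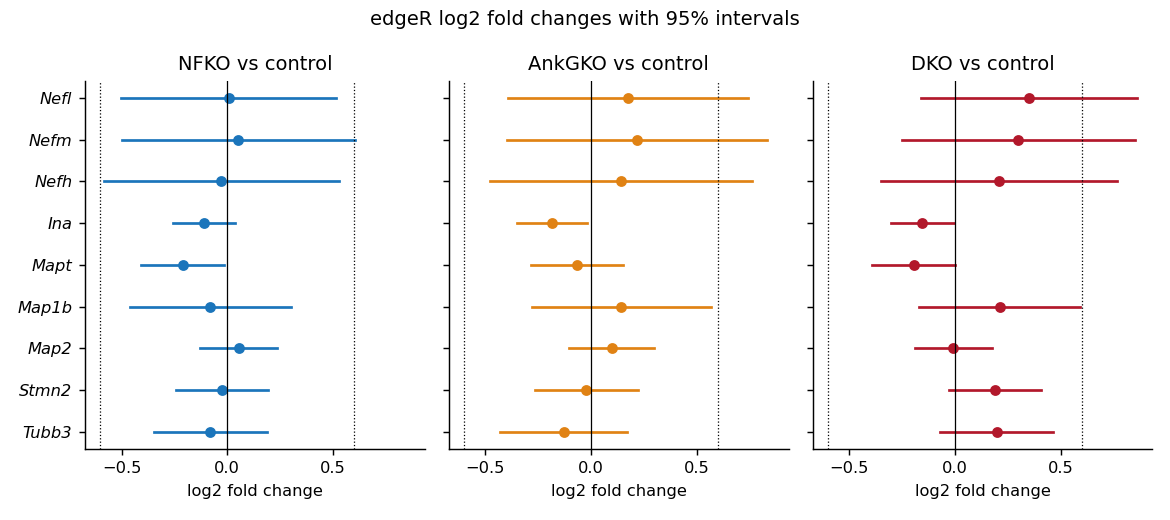
edgeR log2 fold changes against control (horizontal axis) with 95% intervals for the 9 genes in NFKO, AnkGKO and DKO, with dotted lines at the threshold of 0.6. Every point lies between -0.21 and 0.35, and the intervals of Nefl, Nefm and Nefh are the widest.

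The spread within genotypes was the main feature of the triplet. Its SD of log2 CPM around the genotype means was 0.31 for Nefl, 0.33 for Nefm and 0.34 for Nefh, wider than in 98.8%, 99.0% and 99.1% of the 2392 genes with a mean of at least 100 CPM, whose median was 0.092. Map1b (0.24) exceeded 97.4% of these genes and Tubb3 (0.18) exceeded 91.9%. Stmn2 at 0.14, Mapt at 0.12 and Map2 at 0.11 were closer to the median, and Ina at 0.077 was below it. After subtraction of genotype means, the correlation with the mean profile of the triplet over 11 libraries was 0.92 for Stmn2, 0.89 for Map1b, 0.80 for Tubb3, 0.76 for Ina, 0.52 for Map2 and 0.24 for Mapt, given as a description since these values share libraries and scaling. Of 10230 other genes with a mean of at least 10 CPM, the 5 most like the triplet were Rab6b (r = 0.990), which encodes a neuronal Golgi transport GTPase, Acly (0.988), the ATP citrate lyase of acetyl-CoA synthesis, Mudeng (0.986), Dffa (0.985), the inhibitor of a DNA fragmentation nuclease, and Kcnj14 (0.983), an inward rectifier potassium channel. Kcnj14 ran from 10.6 CPM in control replicate 2 to 25.1 CPM in AnkGKO replicate 2, the libraries that bound the triplet. Acly ran from 562 CPM in NFKO replicate 2 to 880 CPM in AnkGKO replicate 2.

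The triplet followed the cholinergic motor neuron markers. These are Chat, which makes acetylcholine, its vesicular transporter Slc18a3, the choline transporter Slc5a7, the vesicle protein Slc10a4 and the transcription factors Isl1 and Mnx1. Their summed level was 294, 187 and 315 CPM in control, 400, 215 and 259 in NFKO, 232 and 506 in AnkGKO, and 429, 443 and 409 in DKO. As with Nefl, control replicate 2 was lowest, AnkGKO replicate 2 was highest and the DKO libraries lay above the controls. The log2 summed level of Nefl, Nefm and Nefh correlated with the log2 marker sum over the 11 libraries (Pearson's r = 0.964, permutation p = 1e-05, the smallest that 100000 permutations can give, adjusted p = 6e-05 over 6 marker lists). Spearman's rho was 0.918 (permutation p = 0.00026, adjusted p = 0.00156). After subtraction of the genotype means r was 0.982, and without the libraries farthest from the median, control replicate 2 and AnkGKO replicate 2, it was 0.934 (exact permutation p = 0.000196, adjusted p = 0.00117). All libraries were labelled as 1 batch. In bulk tissue, more cells of a type and more RNA per cell cannot be told apart.

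Over all libraries the other marker lists gave smaller values of r. For the 12 caudal Hox genes r was 0.832 (permutation p = 0.00045, adjusted p = 0.00135) and rho 0.736 (permutation p = 0.0133, adjusted p = 0.0398). Without control replicate 2 and AnkGKO replicate 1 that r was 0.694 (exact permutation p = 0.0362, adjusted p = 0.0724), so the relation rested in part on them. After subtraction of the genotype means the Hox genes gave r = 0.885 (permutation p = 0.00013, adjusted p = 0.00039). Their rho was then 0.936 (permutation p = 8e-05, adjusted p = 0.00024), equal to that of the cholinergic markers. These permutations shuffled values across genotypes although the genotype means had been removed, so their p-values can be too small. The Hox genes did not all go the same way. From control replicate 2 to AnkGKO replicate 2, Hoxc8 rose from 7.99 to 139 CPM and Hoxb9 from 12.6 to 91.5. Hoxb6 fell from 58.8 to 38.7 CPM, Hoxb7 from 31.4 to 20.3, Hoxb8 from 221 to 186 and Hoxa6 from 6.22 to 5.65. The rest of that list rose. Purkinje cell markers gave r = -0.034 (permutation p = 0.932) and rho = -0.427 (permutation p = 0.194). Control replicate 1 and NFKO replicate 1 were far from the rest, and without them r was -0.821 (exact permutation p = 0.00376, adjusted p = 0.0113) and rho -0.783 (exact permutation p = 0.0172, adjusted p = 0.0517). Granule cell markers (r = -0.0023, permutation p = 0.995, rho = -0.227), pan-neuronal markers (r = 0.312, permutation p = 0.339, rho = 0.136) and oligodendrocyte markers (r = 0.457, permutation p = 0.161, rho = 0.236) did not pass the threshold over all libraries. After subtraction of the genotype means, oligodendrocyte markers gave r = 0.720 (permutation p = 0.0123, adjusted p = 0.0246), with the same limit on p.

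A slope on the log2 cholinergic marker sum was then fitted for every gene within genotypes in edgeR, a step added after the correlations were seen. Per doubling of the markers, Nefh rose by 0.75 on the log2 scale (standard error 0.060, adjusted p = 0.000211), Nefm by 0.74 (0.065, adjusted p = 0.000449) and Nefl by 0.69 (0.065, adjusted p = 0.000774). By p they ranked 5, 7 and 8 among 17557 genes, behind Slc5a7, Slc10a4, Chat and Slc18a3, which are part of the marker sum. Map1b also passed, with a slope of 0.48 (standard error 0.090, adjusted p = 0.0348). Thus 4 of 9 members had a positive slope past the threshold, against 0.478% of all genes. The slopes of Stmn2 (0.29, adjusted p = 0.0538), Tubb3 (0.33, adjusted p = 0.105), Ina (0.12, adjusted p = 0.481), Map2 (0.097, adjusted p = 0.699) and Mapt (0.073, adjusted p = 0.823) did not pass. The triplet passed in 11 of 11 fits that left out 1 library, with slopes of 0.63 to 0.77, while Map1b passed in 2 of them. The share of all genes with a positive slope past the threshold ran from 0.0514% without AnkGKO replicate 2 to 0.824% without DKO replicate 2 in these fits. Without DKO replicate 2 the adjusted p was 0.0305 for Stmn2, 0.0429 for Tubb3 and 0.00792 for Map1b. Without both control replicate 2 and AnkGKO replicate 2, 0 of 17436 genes passed in edgeR, the slopes of Nefl, Nefm and Nefh being 0.63, 0.60 and 0.67 (adjusted p = 0.828 to 0.939), and 528 genes had an unadjusted p under 0.05.

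**Figure D4:**
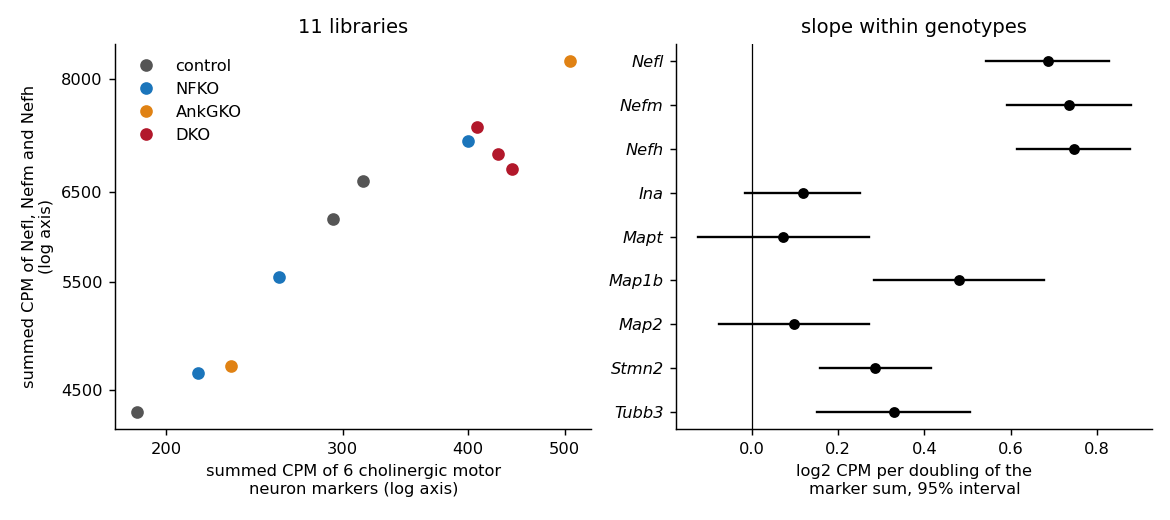
The left panel plots the summed CPM of Nefl, Nefm and Nefh against that of 6 cholinergic motor neuron markers on log axes, with 1 point per library coloured by genotype. The right panel gives the edgeR slope of each gene (log2 CPM per doubling of the marker sum) with its 95% interval, which lies between 0.54 and 0.88 for the triplet and includes 0 for Ina, Mapt and Map2.

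With the marker sum as a covariate, also chosen after seeing the data, the DKO values against control turned from positive to negative, to -0.12 for Nefl, -0.21 for Nefm and -0.31 for Nefh. Nefh had the lowest adjusted p of the 3 (standard error 0.071, adjusted p = 0.354 in edgeR). None of the members was called in that fit. Whether the DKO values reflect the genotype or the amount of these markers cannot be told apart for Nefl and Nefm, since all DKO libraries lie above all controls in these genes and in the markers. For Nefh, DKO replicate 2 (1549 CPM) lay below control replicate 3 (1586 CPM).

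Ratios within a library do not depend on scaling. Per kb, Nefh made up 25.7, 25.4 and 25.2% of the triplet in control replicates 1, 2 and 3, 24.9, 24.2 and 25.0% in NFKO, 24.3 and 25.1% in AnkGKO, and 24.0, 24.1 and 23.4% in DKO. Every DKO library lay below every other library, and every control above. An exact permutation test of the genotypes over 92400 assignments (two-sided F) gave p = 0.0116, or 0.0697 after adjustment over 6 quantities, which did not pass. The Nefm to Nefl ratio averaged 0.611 ± 0.0107 for control, 0.630 ± 0.0121 for NFKO and 0.588 ± 0.00882 for DKO (SD, n = 3 each), and the AnkGKO libraries had 0.585 and 0.652 (exact permutation p = 0.180, adjusted p = 0.360).

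The Ina to Nefl ratio ranged from 0.0903 to 0.170 and lay between 0.0957 and 0.0972 in DKO (exact permutation p = 0.164, adjusted p = 0.360). The ratio of Tubb3 to Nefl (0.214 to 0.345, exact permutation p = 0.469, adjusted p = 0.563) overlapped among genotypes. That of Map2 to Mapt did not pass either (exact permutation p = 0.415, adjusted p = 0.563). It was 0.922 to 1.08 in control, 1.10 to 1.11 in AnkGKO and 1.16 to 1.21 in NFKO, without overlap. The DKO range of 0.887 to 1.37 spanned them all. Map2 to Mapt was lowest in DKO replicate 2 and highest in DKO replicate 1, and without DKO replicate 2 its adjusted p was 0.0676 (exact permutation). The summed triplet level per kb was 1581 to 1704 in DKO, above the 1005 to 1545 in control, and its test over the 4 genotypes did not pass (1328 ± 285 in control and 1637 ± 62.4 in DKO, SD, n = 3 each, exact permutation p = 0.607).

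**Figure D5:**
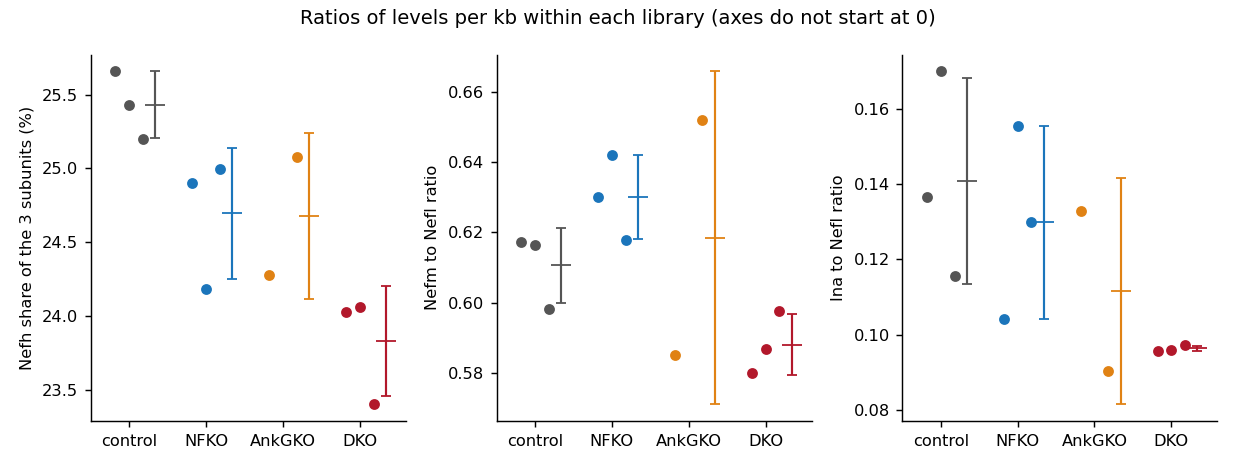
Ratios of levels per kb within each library, by genotype, for the Nefh share of the triplet (%), the Nefm to Nefl ratio and the Ina to Nefl ratio, with the mean ± SD. Axes do not start at 0, and the Nefh share spans from 23.4% in DKO to 25.7% in control.

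Partners of these proteins were read from 7 lists holding 86 genes, all tested. In edgeR 0 of 86 were called in any of the 7 comparisons, where 0.0228% to 0.723% of all genes were. An unadjusted p under 0.05 against control was found for 6 in NFKO, 5 in AnkGKO and 6 in DKO. Over all genes these shares were 7.69%, 5.39% and 7.77%. Among other intermediate filaments (6 genes), Gfap, the astrocyte filament, was at 1922, 2151 and 1587 CPM in control, 1537, 1495 and 1398 in NFKO, 3054 and 2532 in AnkGKO, and 2238, 3048 and 1982 in DKO. Both AnkGKO libraries were above and all NFKO libraries below the controls, with edgeR log2 fold changes of 0.57 (adjusted p = 0.537) and -0.35 (adjusted p = 0.643). Of all genes, 24.0% in AnkGKO and 13.9% in NFKO did not overlap with control. DKO against NFKO gave 0.71 for Gfap (adjusted p = 0.0776). Synm, a large filament partner, averaged 129 ± 8.26 CPM over 3 control and 157 ± 26.6 CPM (SD) over 2 AnkGKO libraries, a log2 fold change of 0.29 (adjusted p = 0.748 in edgeR).

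The cytoskeletal linkers Plec, Dst and Macf1 had no member with an unadjusted p under 0.05 against control, and the DKO log2 fold change was 0.21 for Plec and -0.054 for Dst. Of the 12 other tubulins, the minor isotype Tubb6 had the highest DKO value, at 2.39 ± 0.300 CPM in control and 4.09 ± 0.825 in DKO (SD, n = 3 each, log2 fold change 0.77, adjusted p = 0.562 in edgeR). Tubb5 differed in the interaction by 0.31 (adjusted p = 0.249). Of 20 other microtubule-associated proteins and stathmins, Tppp3, a tubulin polymerization promoter, was at 354, 465 and 308 CPM in DKO against 262 to 284 in control (log2 fold change 0.45, adjusted p = 0.588 in edgeR). That value again peaked in DKO replicate 2. Stmn3 averaged 527 ± 13.6 CPM over 3 control and 453 ± 31.6 CPM (SD) over 2 AnkGKO libraries (adjusted p = 0.854 in edgeR).

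Among 18 kinases and phosphatases of tau and neurofilaments, Cdk5, a proline-directed kinase of both, was at 136, 125 and 132 CPM in control and 104, 89.4 and 128 in NFKO (log2 fold change -0.29, adjusted p = 0.476 in edgeR). The tau kinase Mark4 averaged 59.5 ± 1.51 CPM over the control libraries, against 53.3 ± 3.11 CPM (SD, n = 3 each) over the NFKO libraries (adjusted p = 0.683 in edgeR). Among 18 genes of tubulin modification and severing, Ttll1, a subunit of the tubulin polyglutamylase complex, was at 40.6 ± 2.54 CPM in control and 45.1 ± 0.369 in DKO (SD, n = 3 each, log2 fold change 0.15, adjusted p = 0.619 in edgeR). Agbl4, a deglutamylase, had a log2 fold change of -0.53 in NFKO (adjusted p = 0.570). Of 9 microtubule proteins of the axon initial segment and microtubule ends, Trim46, which bundles axonal microtubules there, was at 58.8, 56.4 and 55.8 CPM in control and 48.3, 49.7 and 52.0 in NFKO, without overlap (log2 fold change -0.19, adjusted p = 0.362 in edgeR). Ndel1, a dynein regulator recruited to the initial segment by ankyrin G, was at 107, 96.7 and 115 CPM in control and 139, 119 and 127 in DKO, again without overlap (0.27, adjusted p = 0.562 in edgeR). Over all genes, 13.9% in NFKO and 14.4% in DKO did not overlap with control. Both genes were named for having the smallest p of their list in the test of any difference.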

How the data were processed

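Polyadenylated RNA was measured in 11 libraries, whose genotypes come from the labels. Reads were trimmed by the authors (Trimmomatic 0.39), who then aligned them to GRCm39 (STAR 2.7.11a) and deposited raw read counts per gene, together with a normalized signal that equals these counts divided by 1 size factor per library (0.815 to 1.16). Trimmomatic, STAR and build come from the submitters' processing notes. The tests used the counts, without 5 summary lines that name no gene. The line for reads aligned to more than 1 place amounted to 56.9 to 61.0 per 100 gene reads.

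The 17557 genes whose counts summed to 10 or more were fitted over the 4 genotypes in edgeR 4.0.16 (R 4.3.3), with TMM, robust quasi-likelihood tests and Benjamini-Hochberg adjustment. Standard errors were the absolute log2 fold change divided by the square root of F. DESeq2 1.42.0 with a local dispersion fit was the alternative. Both were tested on simulated data. Nothing in the labels says more than biological replicate. At these depths 3 counts correspond to 0.0537 to 0.0771 CPM, which covers counting error only.

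Members, gene lists, tests and the rule for named genes were chosen with earlier results of these data known. Named were all members, from each partner list the 2 genes with the smallest p in the test of any difference and any called, the 5 most alike genes, and the targeted genes. Exon lengths came from GENCODE vM39. At most 0.825% of the 50-base words of any member occur in another gene. Deviations of same-numbered control and NFKO libraries correlated at 0.363, 0.306 and 0.175, while the correlations of other genotype pairs ranged from -0.276 to 0.350. Libraries with different numbers were not compared, so these values cannot show whether the numbers pair the samples. Levels below the gene, such as isoforms, and protein sequences were not analysed here.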

Additional observations from a re-analysis of the deposited data

How the results depend on the processing

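No member was called under any of 20 alternative fits (DESeq2 and its size factors, other filters, only the libraries compared, covariates, each library left out) nor at other fold thresholds, and the lowest adjusted p of any member was 0.138, in DESeq2. A fit with the replicate block also called 0 of 9 members in each comparison and changed no call of a member, and it moved Nefl in AnkGKO from 0.18 to 0.25. The correlations, slopes and ratios were not fitted with the block. Directions turned for small values and for some of the largest. With Xist as a covariate the sign turned for Nefl (-0.20) and Nefm (-0.12) and Map2 (-0.036) in NFKO, for Nefl (-0.034), Nefh (-0.051), Mapt (0.045) and Map1b (-0.040) in AnkGKO, and for Map2 (0.016) in DKO, and Mapt in NFKO went from -0.21 to -0.10. Without the first control and NFKO libraries it turned for Nefl (-0.12) and Nefm (-0.064) in NFKO and Stmn2 (0.019) in AnkGKO. With the cholinergic markers as a covariate, chosen after seeing the data, it turned for Nefl (-0.075) and Nefm (-0.036) in NFKO, for Nefl (-0.12), Nefm (-0.13), Nefh (-0.20) and Map1b (-0.080) in AnkGKO, and for Nefl (-0.12), Nefm (-0.21), Nefh (-0.31), Map1b (-0.13), Stmn2 (-0.011) and Tubb3 (-0.038) in DKO.

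Leaving out 1 library in turn gave log2 fold changes on both sides of 0 in NFKO for Nefl (-0.17 to 0.14), Nefm (-0.13 to 0.18), Nefh (-0.22 to 0.12), Map1b (-0.22 to 0.0089), Stmn2 (-0.11 to 0.062) and Tubb3 (-0.16 to 0.022). In AnkGKO this held for Nefl (-0.23 to 0.49), Nefm (-0.29 to 0.59), Nefh (-0.34 to 0.50), Mapt (-0.16 to 0.025), Map1b (-0.21 to 0.43), Stmn2 (-0.13 to 0.084) and Tubb3 (-0.32 to 0.044), and in DKO for Map2 (-0.071 to 0.075). Without control replicate 2 the DKO values also shrank for Nefl (0.35 to 0.18), Nefm (0.30 to 0.13), Nefh (0.21 to 0.038), Map1b (0.21 to 0.12), Stmn2 (0.19 to 0.10) and Tubb3 (0.20 to 0.11). Where AnkGKO kept 1 library, it was assumed to vary like the other groups. The adjusted p of the Nefh share ranged from 0.0246 to 0.286 and that of the Nefm to Nefl ratio from 0.0214 to 0.642. The Nefh share passed without either AnkGKO library or without NFKO replicate 2, and the ratio without either AnkGKO library. The adjusted p of the Map2 to Mapt ratio ranged from 0.0676, without DKO replicate 2, to 0.683.

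After subtraction of genotype means, r was 0.26 for Purkinje cell markers, 0.21 for granule cell markers and 0.72 for oligodendrocyte markers. For the last the permutation test gave adjusted p = 0.0246, which can be too small for the reason given above. Without the libraries farthest from the median, r was -0.82 for Purkinje cell, 0.69 for caudal Hox and -0.19 for pan-neuronal markers. The number of members whose positive cholinergic slope passed the threshold ranged from 3 to 6 over single libraries left out, where 0.0514% to 0.824% of all genes passed, the 6 and the 0.824% both without DKO replicate 2. It was 0 without the lowest and the highest library together, in which fit 0 genes passed in edgeR, 528 had an unadjusted p under 0.05 and the slopes of Nefl, Nefm and Nefh were 0.63, 0.60 and 0.67. The cause of these shifts was not tested. With 2 or 3 libraries a group and a within-genotype spread of 0.31 to 0.34, the upper bounds for the triplet in DKO were 1.70- to 1.82-fold.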
